A study of Mus musculus with 2 samples.

Results

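Unannotated intergenic loci are places where long reads were collected outside the annotated genes and not within one on the opposite strand, as the deposited gene classes have it. The members were all loci of the gene class Intergenic in either library, outside the spike-in contigs, and loci of the 2 libraries were joined where they shared strand and at least 1 base of span. This gave 2592 joined loci from 1371 loci in replicate 1 and 1651 in replicate 2, of 27025 annotated genes, antisense loci and intergenic loci with reads in all. The series holds 1 group with 2 replicate libraries of gastrocnemius, the large calf muscle, from male B6CASTF1/J mice aged 14 days, the offspring of a C57BL/6J and a CAST/EiJ parent. Each library was made from 2 µg of total RNA and sequenced with long reads, with no treatment named. The labels give both libraries 1 donor identifier, so the spread between them may be technical, and no groups can be compared.

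Reads outside the spike-in contigs numbered 1094607 in replicate 1 and 626289 in replicate 2. All 8 markers of fast skeletal muscle were abundant, from 1753 reads per 1000000 (CPM) for Myh1 in replicate 2 to 93714 CPM for Atp2a1 in replicate 1.

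Several kinds of sequence outside annotated genes are known to make RNA. Retrocopies (processed pseudogenes) are intronless copies of messenger RNAs pasted into the genome, and their annotation often covers the coding part alone. Many promoters start RNA in both directions, which leaves a short divergent transcript upstream of the gene. The mouse genome also holds many B2 elements, short repeats derived from a transfer RNA gene and read by RNA polymerase III from inner A and B boxes.

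The locus with the most reads in each library began at the last annotated base of a retrocopy, on its strand. The final 60 bases of 7 such copies, those with the highest mean CPM, are given in the GENCODE M21 sequence on mm10, with the last 3 bases in capitals, because they show where the annotation stops. Coordinates follow each name.
Gm12671, chr4:91851668-91851727, minus strand: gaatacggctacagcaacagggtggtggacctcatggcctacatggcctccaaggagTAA
Gm12033, chr11:20335012-20335071, minus strand: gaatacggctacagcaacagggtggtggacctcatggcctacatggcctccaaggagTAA
Gm6969, chr12:24638669-24638728, minus strand: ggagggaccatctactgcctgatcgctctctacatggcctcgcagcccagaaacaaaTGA
Gm8116, chr9:78820638-78820697, minus strand: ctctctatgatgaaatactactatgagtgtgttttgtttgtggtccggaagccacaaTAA
Gm9755, chr8:67514235-67514294, minus strand: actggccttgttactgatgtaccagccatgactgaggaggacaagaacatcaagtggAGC
Gm10108, chr5:13121448-13121507, minus strand: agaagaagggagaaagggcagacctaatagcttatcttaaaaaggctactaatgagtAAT
Gm10039, chr11:100361716-100361775, minus strand: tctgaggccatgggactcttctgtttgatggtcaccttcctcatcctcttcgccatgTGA
The copies Gm12671, Gm12033, Gm6969, Gm8116 and Gm10039 ended in the letters of a stop codon, and the locus follows directly. The annotated copies Gm12671 and Gm12033 are both 1002 bases long and differ at 1 base.

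A single locus of 166 to 185 bases, of 671 single-exon models in that length window, had every base in the sequence tables used. It is given on its own strand from RefSeq (GRCm38.p6), because single-exon loci of about its length were the most frequent. Capitals mark an A box and a B box (GTTCNANNC), the 2 inner promoter elements of transfer RNA genes.
Locus of 184 bases, chr9:72779460-72779643, minus strand: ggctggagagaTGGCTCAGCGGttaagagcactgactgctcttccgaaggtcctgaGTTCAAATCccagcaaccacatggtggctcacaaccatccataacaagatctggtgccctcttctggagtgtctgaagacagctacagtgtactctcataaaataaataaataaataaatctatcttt
The letters are those of a B2 element, named here from background knowledge and not from a repeat annotation. Searched on both strands, the A box was present in 22.4% and the B box in 9.32% of 32851 RefSeq promoter windows of 250 bases before to 50 after a gene start. The locus held 2 reads in replicate 1 and none in replicate 2.

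Of loci that left a promoter on the opposite strand, the first 120 bases of 3 are given on the strand of the locus from RefSeq (GRCm38.p6). They are those with the highest mean CPM whose shared base lay within 20 bases of the RefSeq start of the gene and whose first 120 bases were in the tables. Capitals mark GGGCGG or its complement CCGCCC, the GC box bound by Sp1.
Upstream of Zfp207, chr11:80383160-80383279, minus strand: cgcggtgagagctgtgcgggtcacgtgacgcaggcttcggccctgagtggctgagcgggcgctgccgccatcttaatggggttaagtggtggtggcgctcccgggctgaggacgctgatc
Upstream of Kpnb1, chr11:97187881-97188000, plus strand: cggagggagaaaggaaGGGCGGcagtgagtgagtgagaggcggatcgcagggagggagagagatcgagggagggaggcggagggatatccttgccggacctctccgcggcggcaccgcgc
Upstream of Nrf1, chr6:30047869-30047988, minus strand: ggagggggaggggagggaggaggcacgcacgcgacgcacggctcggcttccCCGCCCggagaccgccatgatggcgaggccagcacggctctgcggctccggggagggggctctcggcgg
Zfp207 encodes a spindle-associated zinc finger protein, Kpnb1 the nuclear import receptor importin beta, and Nrf1 a transcription factor of genes for mitochondrial and growth functions. The loci upstream of them held 0 and 7, 1 and 6, and 4 and 4 reads in replicates 1 and 2. The GC box was present in 2 of the 3 stretches.

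Repeat detection was low and followed the number of reads. Of the 2592 joined loci, 410 were seen in both libraries, or 15.8% (95% Clopper-Pearson interval 14.4 to 17.3), 953 in replicate 1 only and 1229 in replicate 2 only. Intervals here cover counting error only. Antisense loci were seen in both libraries in 20.3% of 9729 cases (19.5 to 21.1) and annotated genes in 75.9% of 14704 (75.2 to 76.6). The loci held 3458 reads in replicate 1, or 0.316% of its reads, and 3295 reads in replicate 2, or 0.526%. In replicate 1 75.6% and in replicate 2 75.5% of loci held a single read. The smaller library thus listed more loci, 2636 per 1000000 reads against 1252.5.

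A locus with 1 read in replicate 1 was seen in replicate 2 in 21.2% of 1026 cases (18.7 to 23.8), against 35.3% of 2232 annotated genes with 1 read (33.3 to 37.3). With 5 to 9 reads the share was 78.8% of 33 loci (61.1 to 91.0), against 90.4% of 2030 genes (89.1 to 91.7). With 10 reads or more it was 80.6% of 31 loci (62.5 to 92.5), against 99.5% of 6819 genes (99.3 to 99.7) and 94.8% of 174 antisense loci (90.4 to 97.6). The intervals of intergenic and antisense loci overlapped in every class of reads in this direction. From replicate 2 to replicate 1, the shares of intergenic loci were 15.7% with 1 read (13.7 to 17.8) and 79.2% with 10 or more (57.8 to 92.9), against 24.7% (23.3 to 26.1) and 95.7% (91.7 to 98.1) of antisense loci. Annotated genes reached 67.7% (65.8 to 69.6) and 100% (99.9 to 100) in the same direction. A locus with no reads can hold up to 2.74 CPM in replicate 1 and 4.79 CPM in replicate 2, the level of 3 reads.

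**Figure D1:**
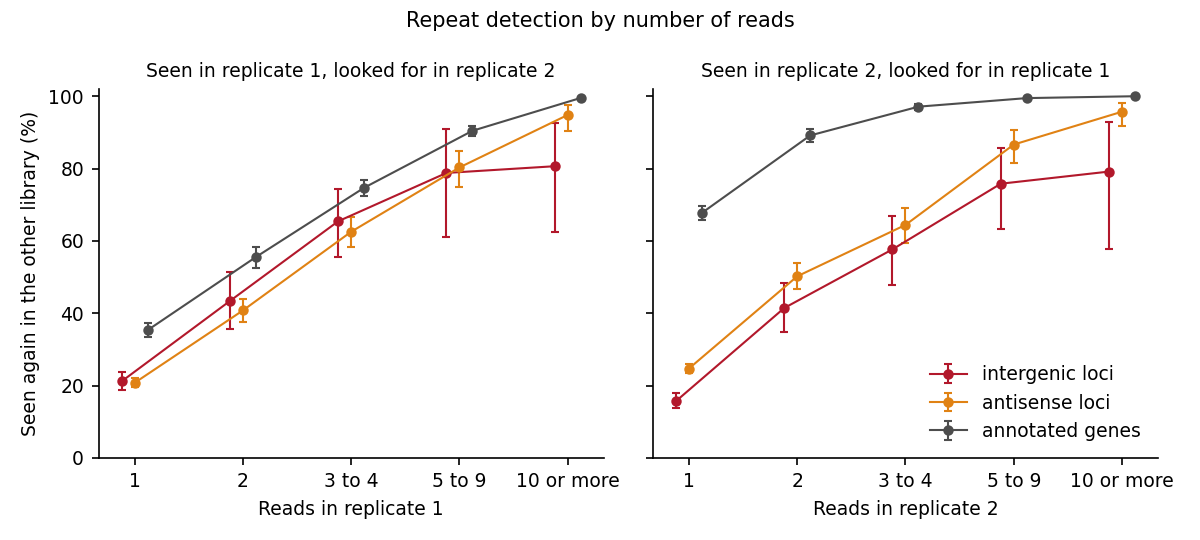
Share of features seen again in the other library (vertical axis, %) by their reads in the first library (horizontal axis, classes of reads), for intergenic loci, antisense loci and annotated genes, with points for shares and bars for 95% Clopper-Pearson intervals. Intergenic loci rise from 21.2% to 80.6% on the left and from 15.7% to 79.2% on the right, and lie below annotated genes in the highest class of both panels.

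Part of the one-sided loci lay where the other library had reads of another class. Among loci of replicate 2 only, 75 of 1229 overlapped same-strand reads of another class in replicate 1, 38 of them with antisense-class reads. Among loci of replicate 1 only, 45 of 953 did so in replicate 2. With reads of any class counted, 530 loci, or 20.4% (18.9 to 22.1), had same-strand reads in both libraries. The start and end were equal in both libraries for 62 of the 410 repeated loci. A locus on the other strand overlapped 77 of the 2592 loci.

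Spliced loci were few. In replicate 1 213 of 1371 loci, or 15.5% (13.7 to 17.6), had a model with 2 or more exons, and in replicate 2 144 of 1651, or 8.72% (7.40 to 10.2). Of the joined loci 304 were spliced in at least 1 library, 187 of them with 2 exons at most, 72 with 3, 29 with 4 and 16 with 5 or more. Of the spliced loci 21.7% (17.2 to 26.8) were seen in both libraries, against 344 of the 2288 single-exon loci (13.6 to 16.6%). This comparison was not matched for reads. A locus counted as spliced if either library had a spliced model there, so loci seen in both had more chances to count. Of the 66 spliced loci seen in both, 52 were spliced in both. The repeat shares of spliced loci, here and by reads below, are thus raised in part by definition. From replicate 1 to replicate 2, 15.2% of spliced and 22.1% of single-exon loci with 1 read were seen again. With 2 to 4 reads the shares were 54.2% and 51.4%, and with 5 or more 72.2% and 82.6%. From replicate 2 to replicate 1, spliced loci had the higher share in each class, 87.5% against 74.3% with 5 reads or more. The intervals of spliced and single-exon loci overlapped in every class in both directions. Of the 16 loci with 5 or more exons, 7 were seen in both libraries.

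Loci spliced in both libraries mostly had an intron in common. Of the 52 loci spliced in both, 49 shared at least 1 intron with equal ends. The 582 introns of intergenic loci had a median length of 1791.5 bases, against 1346 bases for the 155147 introns of annotated genes. Of the intergenic introns 13.6% (10.9 to 16.6) were seen in both libraries, against 13.7% (11.8 to 15.7) of 1221 antisense introns and 62.4% of the annotated genes' introns. Of the intergenic introns 10, or 1.72%, were shorter than 50 bases, against 0.0445% in annotated genes.

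Among loci spliced in both libraries, chrX:9328977-9332624 on the minus strand held 26 reads in replicate 1 and 18 in replicate 2, or 26.2 ± 3.53 CPM (SD, n = 2). Nearly all of them used 1 intron, chrX:9329926-9332448, with 26 and 16 reads. The nearest annotated gene, the processed pseudogene Gm6829, lay 869 bases away on the same strand and had no reads in either library. The values of the 2 libraries lay close, 23.8 and 28.7 CPM.

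The locus at chr14:31872346-31887069 on the plus strand showed alternative splicing in few reads. It held 10 and 11 reads, of which 10 and 10 were spliced, with up to 4 exons. Of its 10 introns, 4 started at 31872792 or 31872988 and ended at 31874255 or 31879380, and each of these 4 was seen in both libraries with 1 to 4 reads each. The intron from 31874997 to 31879380 was also seen in both, with 2 and 4 reads, and the other 5 rested on 1 read each. The nearest gene, the long noncoding RNA D830044D21Rik, lay 19459 bases away.

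The locus at chr4:133096298-133101553 on the plus strand was mainly unspliced. It held 76 reads in replicate 1 and 12 in replicate 2, of which 6 and 3 were spliced to the common intron end 133100641. At chr18:68342951-68496604 on the plus strand, the longest of the named spliced loci, 13 and 8 reads (12.3 ± 0.634 CPM) spread over up to 4 exons, and the intron chr18:68343019-68343782 carried 8 and 6 of them. The only intron that reached its far end, chr18:68365977-68496517 of 130541 bases, was seen in 1 read of replicate 1. The locus overlapped the processed pseudogene AC021063.1 on the same strand. RefSeq has the long noncoding RNA Gm29677, whose strand was not known here, over 98519 of its 153654 bases.

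The other named spliced loci held under 15 reads a library. The locus at chrX:73670404-73674050, minus strand, held 14 and 6 reads, 10 and 3 of them spliced, with up to 3 exons. It overlapped Slc6a8, the creatine transporter gene, on the opposite strand. The span of the RefSeq long noncoding RNA Gm32261, whose strand was not known here, covered 3644 of its 3647 bases. The locus at chr9:97150930-97157802, minus strand, held 5 and 9 reads, 3 and 8 of them with the intron chr9:97151205-97157676. At chr3:137560601-137564413, minus strand, 9 and 5 reads gave nearly equal levels of 8.22 and 7.98 CPM. At chr9:62653607-62666037, minus strand, 4 and 7 reads lay 11789 bases before Itga11, a collagen receptor subunit gene, on the opposite strand to it.

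Loci with many exons lay on RefSeq long noncoding RNA genes in several cases. The locus at chr3:33969241-33993782, minus strand, had 6 exons in both libraries with 2 and 8 reads, shared 4 introns between them and lay on Gm46833. The locus at chr1:72936849-72952742, plus strand, had the most exons, 9, with 6 reads in replicate 1 and none in replicate 2, on Gm31047. At chr7:99634311-99645902, plus strand, 5 exons in both libraries rested on 2 and 1 reads, and no RefSeq gene overlapped it.

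**Figure D2:**
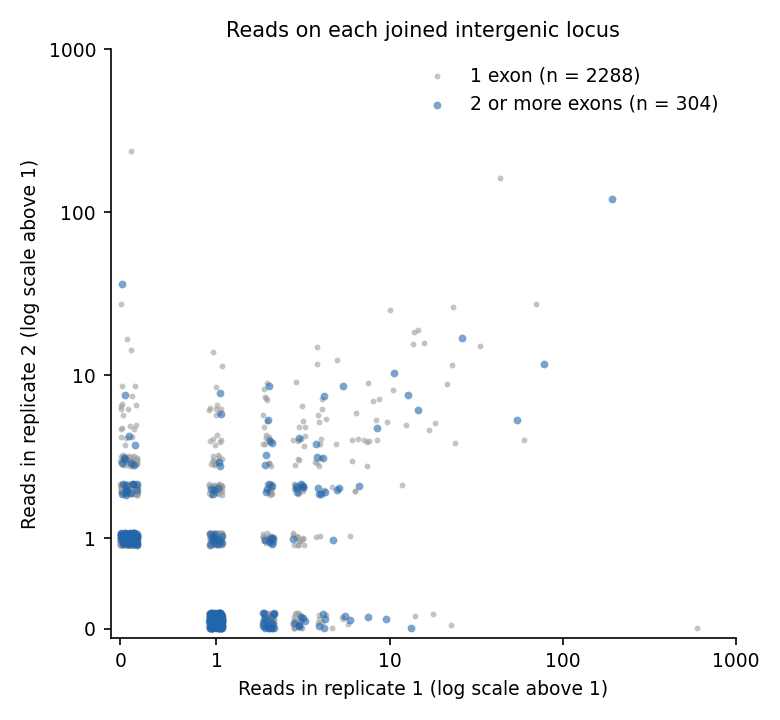
Reads on each of the 2592 joined loci in replicate 1 (horizontal axis) and replicate 2 (vertical axis), on scales that are linear to 1 and logarithmic above, with points moved slightly at random so that equal values can be seen. Single-exon loci are grey and loci with 2 or more exons blue, most points lie at 0 or 1 read, and the single-exon loci with 641 and 0 and with 0 and 229 reads lie far out on either axis.

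Annotated genes were often near. An annotated gene lay within 5000 bases of 62.2% of the 2589 loci on contigs with a gene (60.3 to 64.1), and over 50000 bases away from 104 of them. The median distance of the 2085 loci that did not overlap a gene was 4374 bases. The nearest gene had reads for 60.3% of loci, against 26.5% of all 55536 annotated genes and 57.7% of the 22028 protein-coding ones. Protein-coding genes were the nearest gene of 62.3% of loci and make up 39.7% of the annotation. Over all distances 48.6% of loci lay on the strand of the nearest gene.

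Many loci met a gene at exactly 1 base. This was so for 491 loci, or 18.9% (17.5 to 20.5), 221 on the same strand and 270 on the opposite one. The shortest distance above 0 was 227 bases and the next 300 bases, and 13 loci overlapped a gene by more than 1 base. The files give the ends of transcript models, not of single reads, so a model end that equals an annotated base need not be where a read ended.

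The 1-base loci fell into 2 main arrangements. In 213 of the 491, or 43.4% (38.9 to 47.9), the locus led away from the 5′ end of a gene on the opposite strand, and in 184, or 37.5% (33.2 to 41.9), it went on after the 3′ end on the same strand. Among the 304 loci at a distance under 1000 bases, the divergent arrangement made up 15.5% (11.6 to 20.0) and the same-strand 3′ arrangement 76 loci (20.2 to 30.3%). Loci after a 3′ end on the opposite strand were the largest class there, with 35.2% (29.8 to 40.9). Over 10000 bases away, the 4 arrangements ranged from 21.2% to 28.8%.

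**Figure D3:**
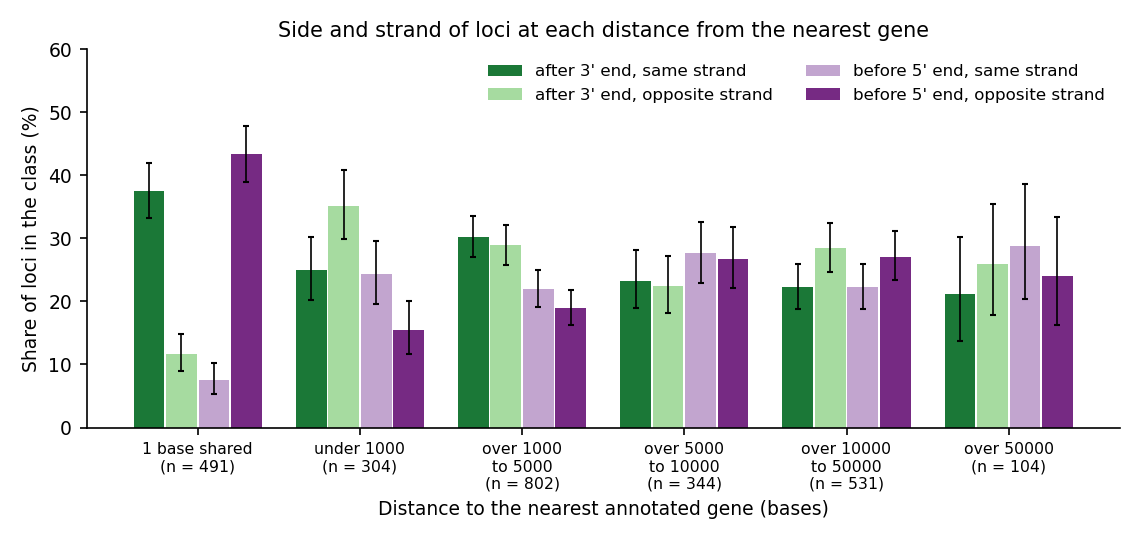
Share of loci (vertical axis, %) in each of 4 arrangements of side and strand, by distance to the nearest annotated gene (horizontal axis, bases, with the number of loci), with bars for shares and lines for 95% Clopper-Pearson intervals. Divergent loci (43.4%) and same-strand loci after the 3′ end (37.5%) lead at 1 shared base, and the 4 shares lie close together at long distance.

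Divergent loci belonged mostly to protein-coding genes that had reads themselves. Of the 213, 189 lay at protein-coding genes, and the gene had reads for 87.3%. They held few reads, 194 in replicate 1 and 210 in replicate 2, and 35 were seen in both libraries. At Sept7, a septin cytoskeleton gene, the locus held 7 and 4 reads (6.39 ± 0.00577 CPM), and the gene 92 and 34. At Bicra, a subunit gene of a SWI/SNF chromatin complex, the locus held 8 and 5 reads and the gene 2 and 4. A RefSeq promoter window with its start within 250 bases was found for 134 of the 213, of which 71.6% (63.2 to 79.1) held the GC box GGGCGG and 8.21% (4.17 to 14.2) TATAAA, on either strand. Over 13483 promoters of genes with reads the shares were 60.4% (59.6 to 61.2) and 7.39% (6.96 to 7.85), and over all 32851 promoters 35.7% and 13.6%. The median GC content was 62.8% for the 134 windows and 60.3% for those of genes with reads.

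Loci that went on after a 3′ end on the same strand held most of their reads at retrocopies. Of 184 such loci, 105 followed a protein-coding gene and held 106 and 115 reads in all, while 62 followed a processed pseudogene and held 895 and 393. With 1 more at a transcribed processed pseudogene, 63 retrocopies were compared with the transcripts of protein-coding genes. A similar gene over at least 80% of the copy was found for 61 of them, at a median identity of 99.3% (76.8 to 100). Of the 63 copies 34, or 54.0% (40.9 to 66.6), ended in the letters TAA, TAG or TGA in the annotation (the frame was not tested), against 32.7% (31.8 to 33.7) of all 9943 processed pseudogene transcripts.

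The length of these loci often matched what was missing from the retrocopy. In 32 of 61 cases, or 52.5% (39.3 to 65.4), the locus was within 20 bases of the length that the similar gene's transcript had left after the aligned part. It was shorter by more than 20 bases in 18 cases and longer in 11. Copies of 1 gene, such as the 6 of Gapdh, were counted singly, so the cases are not independent as the interval takes them to be. No share expected without a link was computed. RefSeq draws the same pseudogenes longer, and 50 of the 63 loci overlapped the RefSeq span of their retrocopy by more than 1 base, 41 of them over their whole length. Reads from near-identical copies cannot be told apart with certainty, so the reads of these loci are uncertain in which copy they belong to.

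**Figure D4:**
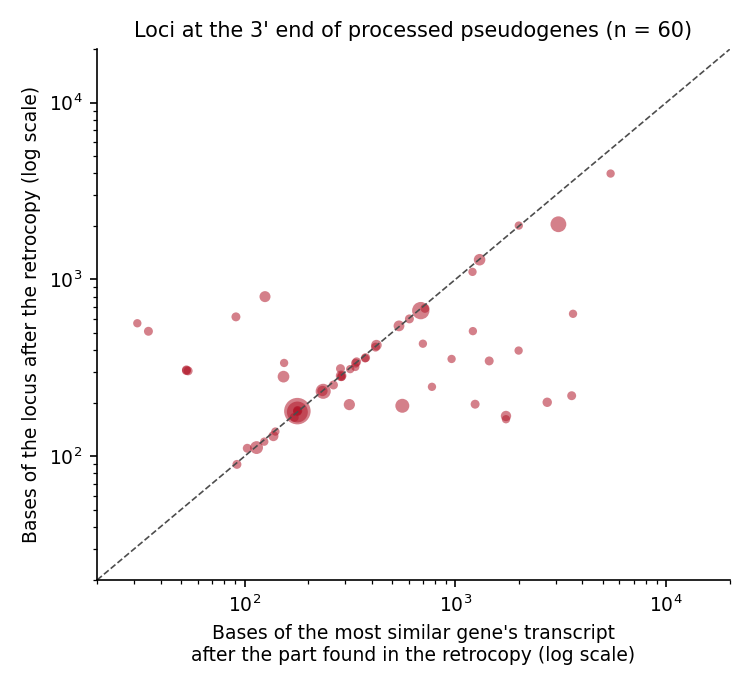
Bases of each locus after the annotated end of a processed pseudogene (vertical axis, log scale) against the bases that the most similar protein-coding transcript has after the part found in the pseudogene (horizontal axis, log scale), for the 60 of 61 copies where that rest is above 0. Point area grows with the reads of the locus, the dashed line marks equal lengths, and 32 of the 61 loci are within 20 bases of it.

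Copies of Gapdh, the glycolytic enzyme glyceraldehyde-3-phosphate dehydrogenase, gave the loci with the most reads in each library. The locus at chr4:91851488-91851668, minus strand, began at the last base of Gm12671 and held 641 reads in replicate 1, or 586 CPM, and 0 in replicate 2. The locus at chr11:20334834-20335012, minus strand, began at the last base of Gm12033 and held 0 reads in replicate 1 and 229 in replicate 2, or 366 CPM. The copies share their last 60 bases, as the printed stretches show, and the 2 libraries split exactly between them. Summed over the pair, the values were 586 and 366 CPM.

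In all 6 Gapdh retrocopies carried such a locus, each of 179 to 183 bases, with 641 and 234 reads in total. The annotated parts of these 6 copies held 4938 and 1949 reads, and the annotated Gapdh gene itself 48 and 37. Identity to Gapdh was 97.9% to 100%. At this identity the reads of the gene, of its copies and of the loci behind them are one uncertain pool.

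Other retrocopy loci were seen in both libraries. At Gm6969, most similar to Cox7a2l, a gene for assembly of respiratory supercomplexes, the locus held 69 and 29 reads (54.7 ± 11.8 CPM) and the copy 15 and 26. At Gm9755, similar to the mitochondrial elongation factor gene Tufm, the locus of 234 bases held 35 and 15 reads (28.0 ± 5.67 CPM) and the Tufm transcript has 236 bases left. At Gm10108 10 and 24 reads (23.7 ± 20.6 CPM) lay behind a copy with 0 and 2 reads. At Gm8116, most similar to the methyltransferase gene Carnmt1, 59 and 4 reads (30.1 ± 33.6 CPM) spread widely between the libraries.

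Loci often overlapped genes that RefSeq draws longer. A RefSeq gene overlapped 834 of the 2592 loci by more than 1 base, or 32.2% (30.4 to 34.0). For 417 loci it was the nearest gene itself, drawn longer by RefSeq, and 252 of these lay after its 3′ end, 186 on its strand. The nearest gene was protein-coding for 117 of the 186, of 419 same-strand loci after the 3′ end of a protein-coding gene (27.9%, 23.7 to 32.5), and a processed pseudogene for 61, of 151 (40.4%, 32.5 to 48.7). Strand was known for 54.1% of RefSeq genes, and 304 loci lay on the strand of one, 147 of them protein-coding and 157 long noncoding. No RefSeq gene overlapped 54.9% of the spliced loci (49.2 to 60.6) and 69.5% of the single-exon loci (67.6 to 71.4). Overlap was counted over the whole span of a locus, introns included, so longer loci had more room for one.

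The loci here lay on the strand of a protein-coding gene and wholly or partly inside its longer RefSeq span. Those with the highest mean CPM are given first. At Kcnj12, an inward rectifier potassium channel gene, the locus chr11:61071131-61073265 held 22 and 9 reads (17.2 ± 4.05 CPM) and lay wholly in the RefSeq gene, while the GENCODE gene held 55 and 20. At Zbtb16, a transcription factor gene, a locus 1027 bases after the end held 23 and 4 reads, and the gene 18 and 2. At Kcna7, a voltage-gated potassium channel gene, the locus held 0 and 14 reads and the gene 15 and 2. Hipk2 encodes a nuclear protein kinase, and its locus held 12 and 5 reads (9.47 ± 2.11 CPM) against 5 and 3 on the gene. Vash1 encodes vasohibin, a tubulin carboxypeptidase, and its locus held 9 and 4 reads (7.30 ± 1.30 CPM) against 1 and 1 on the gene. The Srl locus, between these in level, is described with the muscle genes. At Myl10, a myosin light chain gene, 4 and 6 reads lay on the locus and 1 and 0 on the gene, and at Eef1a2, the muscle form of elongation factor 1 alpha, 7 and 4 reads lay 1625 bases after the end (6.39 ± 0.00577 CPM).

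Of 50 muscle genes 20 had a locus within 10000 bases, 24 different loci in all, 10 on the strand of the gene and 6 seen in both libraries. The same share over all annotated genes is not given here, so this count shows no trait of muscle genes. At Des, Mb, Neb and Tnnc2 the locus held 1 read in 1 library alone. The neighbours Myf5 and Myf6, genes of myogenic transcription factors, shared 1 of the 24 loci. After Srl, the gene of the reticulum protein sarcalumenin, a same-strand locus held 17 reads in replicate 1 and 0 in replicate 2, and an opposite-strand locus 0 and 7. After Actn2, the alpha-actinin gene of the Z-disc, 2 loci of opposite strand met at chr13:12266546, with 10 and 8 reads on the gene's strand and 3 and 1 on the other. After Trdn, the gene of the junction protein triadin, 17 and 5 reads lay 1401 bases from its end on its strand. A locus of 189 bases touched the 3′ end of Ttn, the titin gene, with 0 and 3 reads. The genes Srl, Actn2, Trdn and Ttn themselves held 246 to 3604 reads in replicate 1.

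On the opposite strand, the locus at chr7:28187294-28189072, minus strand, was the one with the highest mean among loci seen in both libraries. It shared 1 base with the 3′ end of Dyrk1b, a kinase gene, which RefSeq draws through it. It held 189 reads in replicate 1 and 117 in replicate 2, or 173 and 187 CPM (180 ± 10.01), more than the 123 and 70 reads of Dyrk1b. A second locus of this kind, chr11:100460044-100461670, plus strand, lay 944 bases after Klhl11, with 14 and 18 reads (20.8 ± 11.3 CPM).

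Single-exon models of 171 to 180 bases stood out in length. They were 189 of 1194 single-exon intergenic models in replicate 1, or 15.8% (13.8 to 18.03), and 351 of 1531 in replicate 2, or 22.9% (20.8 to 25.1). No other class of 10 bases held more than 5.88% in replicate 2. Among antisense models the same class held 2.37% and 6.09%, and among models of annotated genes that match no annotated transcript 1.86% and 3.70%. Its share of the reads on single-exon intergenic models was 10.6% and 32.5%. These shares depend on the edge of the class and on 2 Gapdh retrocopy loci. The Gm12033 locus of 179 bases, with 229 reads in replicate 2, lay inside the class. The Gm12671 locus of 181 bases, with 641 reads in replicate 1, lay just outside. The models were also shorter in replicate 2 altogether, with medians of 463 and 188 bases in the 2 libraries, and 1310 and 480.5 bases among antisense models.

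**Figure D5:**
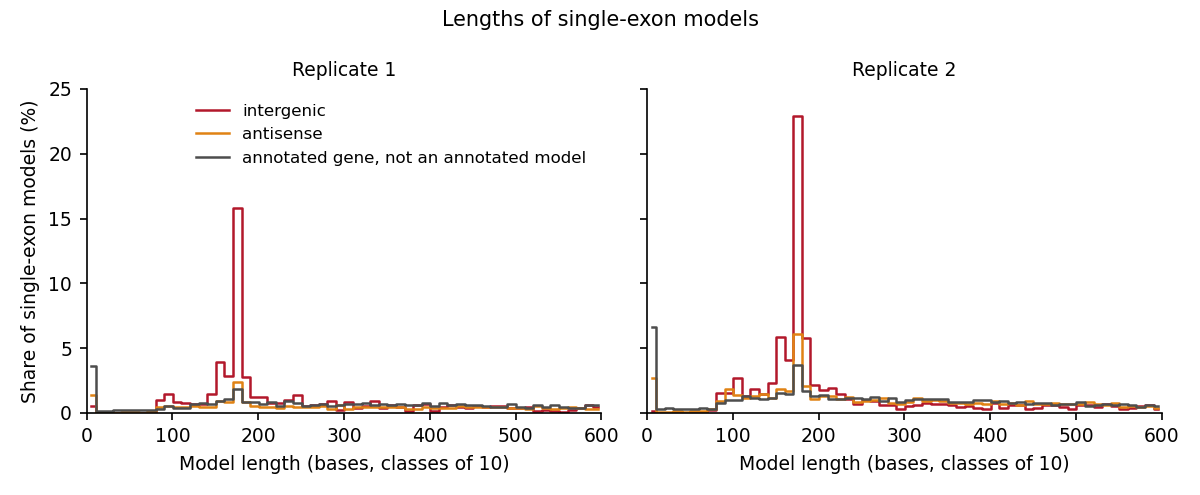
Share of single-exon models (vertical axis, %) by length (horizontal axis, bases, in classes of 10, to 600) for intergenic loci, antisense loci and models of annotated genes that match no annotated transcript, replicate 1 left and replicate 2 right. The class of 171 to 180 bases holds 15.8% and 22.9% of intergenic models, and 2.37% and 6.09% of antisense models.

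Short loci seldom touched a gene. Of the 456 joined single-exon loci of 171 to 180 bases, 8, or 1.75%, touched a gene, against 307, or 34.4%, of the 895 loci of over 180 to 1000 bases. Of the 415 shorter single-exon loci, under 171 bases, 18, or 4.35%, touched one. A model end at an annotated base need not be where a read ended, so lengths of touching loci may not be those of reads. How far this shaped the shares was not tested. The loci of 171 to 180 bases had a median distance to a gene of 5541.5 bases and the shorter ones 4731.5 bases, and 49.6% and 50.7% lay on its strand. Of the loci of 171 to 180 bases 17.8% (14.4 to 21.6) were seen in both libraries, against 8.43% (5.94 to 11.5) of the shorter ones. These 2 shares were not matched for reads. A joined locus takes the span of both libraries together, so being seen in both can move a locus to a longer class. The loci of 171 to 180 bases held 329 reads in replicate 1 and 946 in replicate 2. Of the 946, 229 lay on the Gapdh retrocopy locus at Gm12033 and 153 on chr15:103619061-103619240. The Gm12671 locus, with 641 reads in replicate 1, is 181 bases long and not among them. The printed locus of 184 bases with the A and B box was aligned to other single-exon models with full reference sequence. Of 61 antisense models of 166 to 185 bases 8 aligned over at least 100 bases, or 13.1% (5.84 to 24.2), with a median identity of 89.9%, and of 235 models of annotated genes in the same window 12 did, or 5.11% (2.67 to 8.75). No other intergenic model in that window had full sequence. Of longer models, 186 to 280 bases, 9 of 262 antisense ones aligned, or 3.44% (1.58 to 6.42), 16 of 1131 of annotated genes, or 1.41% (0.811 to 2.29), and 0 of 13 intergenic ones. All aligned models lay in the same orientation as the printed locus.

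The short locus with the highest mean was chr15:103619061-103619240, plus strand, 180 bases long and 30552 bases from the nearest gene. It held 45 reads in replicate 1 and 153 in replicate 2, or 41.1 and 244 CPM. At chr4:148590398-148590574, minus strand, 177 bases long and 929 bases before Srm, the spermidine synthase gene, on the opposite strand, 23 and 26 reads gave 21.01 and 41.5 CPM (31.3 ± 14.5).

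Reads on a feature were compared between the 2 libraries with Fisher's exact test (two-sided, Benjamini-Hochberg over 8391 features with at least 10 reads), which compares these libraries and not conditions. The test treats reads as independent molecules, so its p-values cover counting error only. Of 66 intergenic loci 24, or 36.4%, differed at an adjusted p under 0.05, against 13.8% of 7955 annotated genes and 35.4% of 370 antisense loci. Of intergenic loci 8, or 12.1%, were higher in replicate 1 and 16, or 24.2%, in replicate 2, against 7.18% and 6.66% of annotated genes. Among them 10 had no intergenic-class reads in 1 library. The 12 tested single-exon loci of 161 to 190 bases included the Gm12671 and Gm12033 loci. Of these 12, 8 differed, 7 of them with a higher CPM in replicate 2. Antisense loci differed in the same direction, 33.2% higher in replicate 2 and 2.16% higher in replicate 1.

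The smallest adjusted p-values by Fisher's exact test belonged to the Gm12671 locus (7.13e-124), the Gm12033 locus (1.22e-98) and the chr15 locus of 180 bases (1.08e-29). At chr2:77311871-77317035, minus strand, 0 and 38 reads differed (adjusted p = 1.16e-15, Fisher's exact test), but 33 antisense-class reads lay on the same exons in replicate 1. With reads of any class counted, its adjusted p was 0.0323 by Fisher's exact test. At chr16:94526830-94527382, plus strand, divergent from Vps26c, a gene of an endosomal sorting complex, 0 and 26 reads differed (adjusted p = 1.59e-10, Fisher's exact test), with 13 antisense-class reads in replicate 1. With reads of any class its adjusted p was 0.00211 by Fisher's exact test. For both loci the class given to the reads differed between the libraries. The Gm8116 locus, with 59 and 4 reads, was the sixth (adjusted p = 1.19e-06, Fisher's exact test).

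Of the other abundant loci, some passed the test and some did not. Adjusted p-values by Fisher's exact test were 3.65e-05 for chrY:67834528-67839300, 6.56e-05 for chr4:133096298-133101553 and 0.0013 for the Gm10108 locus. The Dyrk1b locus (adjusted p = 0.78), the Gm9755 locus (0.667) and the spliced chrX locus with the intron of 2523 bases (0.80) stayed above the threshold by Fisher's exact test, which does not show that their levels were the same.

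The sex and mitochondrial chromosomes and unplaced contigs held few loci. Chromosome Y had 14, of which chrY:67834528-67839300, minus strand, held 53 and 5 reads and chrY:37763151-37765960, minus strand, 13 and 0. Chromosome X had 94. The mitochondrial chromosome had 3, among them chrM:15422-16187 on the minus strand with 6 and 1 reads, which touched the transfer RNA gene mt-Tp. The contig GL456382 carried a locus of 539 bases at 14205-14743 with 16 and 17 reads (20.9 ± 8.86 CPM) and no annotated gene.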

How the data were processed

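Long-read RNA-seq of 2 gastrocnemius libraries was used. The deposited counts are raw reads per transcript model, which the authors made separately for each library from a filtered mm10 alignment with GENCODE M21, per the file headers and the descriptions deposited with them. Attribute names are those of TALON. The aligner is not given in the sources used here. The model lengths, exon numbers and coordinates are as deposited. CPM was computed over reads outside spike-in contigs. Loci were joined by strand and span, and the nearest GENCODE gene, RefSeq overlap (GRCm38.p6; 99.95% of 20492 shared protein-coding symbols lay at the same place), lengths and introns were computed with Python 3.11.15. Retrocopies were aligned with BLAST 2.17.0; the best-scoring gene was taken, and its shortest transcript. Libraries were compared with Fisher's exact test (scipy 1.17.1), tested on simulated data; edgeR 4.0.16 gave TMM factors for an alternative. Named loci were the 12 with the highest mean CPM seen in both libraries, the 8 highest spliced in both, the 4 with most reads in 1 library only, and up to 6 that differed by the test; loci named at RefSeq genes, muscle genes, promoters, retrocopies and other chromosomes were chosen after their values were seen. The members and lists were chosen with earlier results of these data known. Genome sequence was not used here, so poly(A) signals, genomic A stretches and splice site letters were not analysed.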

Additional observations from a re-analysis of the deposited data

How the results depend on the processing

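Repeat detection stayed within the interval of its reported value with 50% of the shorter span shared, with spans up to 1000 bases apart, on either strand, on exons and on chromosomes 1 to 19, X and Y alone. It moved to 24.7% with at least 2 reads in a library, to 26.5% with at least 5, and to 13.5% with replicate 1 thinned to the depth of replicate 2. Of alternatives chosen after seeing the data, counting reads of any class moved it to 20.4%, and leaving out loci that overlap RefSeq genes, that touch genes or that have the most frequent length did not move it outside the interval. The share of spliced loci was 17.6% with at least 2 reads in a library, and ranged from 8.78% to 15.5% when 1 library was left out. The share within 5000 bases of a gene was 48.9% for protein-coding genes alone, 65.8% for loci seen in both libraries and 67.2% with at least 2 reads. The share on the strand of the nearest gene was 47.2%, 49.9% and 51.4% in the same 3 settings. Within 1000, 10000 and 50000 bases of a gene lay 31.2%, 75.5% and 96.0%. The count of 24 differing loci became 10 of 27 with at least 20 reads, where fewer loci were tested, and 34 of 182 with at least 5. The cause of the other changes was not tested. Of the 24 calls, 22 were also made with at least 5 reads, 10 with at least 20, 24 with TMM factors and 23 with reads of any class. Among the loci named by rank or by the test, 9 differed, and none of these lost its call or changed direction in these settings. Loci named for other reasons were not followed singly, and the calls lost with at least 5 reads may include some of them. No paired analysis was possible because there is 1 group. Alternatives for poly(A) signals, A stretches and splice sites were not run. Depth limits these results: 3 reads are 2.74 and 4.79 CPM, and 3 in 4 loci rest on 1 read.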
